A study of Mus musculus with 16 samples.

Results

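The response of bone marrow progenitors from diabetic mice to interleukin-1β (IL-1β) was described from ATAC-seq peak lists, 1 for each of 8 libraries out of 16 in the series. ATAC-seq uses the Tn5 transposase to cut and tag DNA that is open to proteins. The 8 libraries were taken by their labels as diabetic: 4 baseline libraries and 4 libraries after IL-1β. All 8 came from male C57Bl/6 mice in which streptozotocin, a toxin of the insulin-producing beta cells, had been used to bring about diabetes. Bone marrow cells positive for Gr1, Ter119, B220, CD4 or CD3 had been removed, and the submitters call the cells that were left haematopoietic stem cells, although such a fraction also holds many committed progenitors. Each mouse sample was divided, so that the numbers 1 to 4 name a mouse sample with both portions. The baseline portion was lysed without culture. The second portion spent 6 h in culture with IL-1β at 10 ng/mL, so stimulation and culture always came together and cannot be told apart. Nuclei of 50000 cells entered each library. The age of the mice, and whether a mouse sample is 1 animal or a pool, are not given in the sources used here. The control mice used for comparison near the end were of the same strain and sex, had no diabetes, and were divided and treated in the same way (4 baseline and 4 IL-1β libraries).

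IL-1β binds a receptor of IL-1R1 and its accessory chain, which recruit MyD88 and kinases of the IRAK family. The signal reaches NF-κB, a family of transcription factors held back by IκB proteins, and the MAP kinases that act on AP-1, the Fos and Jun family. NF-κB targets include its own inhibitors, such as IκB proteins, deubiquitinases and RNases, which limit the response. In marrow, IL-1β is known for pushing stem and progenitor cells towards granulocytes and monocytes.

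A library held between 47255 and 69150 peaks, with a background of 0.856 to 1.503 reads per window, which stands in for sequencing depth. The baseline library of mouse 4 stood apart. It had the lowest background, 0.856 reads, and the fewest reads at the median summit of shared regions, 23.0 against up to 43.0. Its correlations with the other 7 libraries over shared regions were 0.789 to 0.865, against 0.875 to 0.952 among those 7. Counts over gene lists and motifs are therefore also given without mouse 4. The 43 risen and 26 fallen regions named below by rule from the fit on 4 mice passed its threshold without mouse 4 as well. That fit used the remaining libraries again, so passing it is no independent check of agreement between mice. At the Ankrd12 region limma's adjusted p was 0.000158 with 4 mice and 2.5e-15 without mouse 4, although fewer mice entered. Limma draws on a variance shared over regions, and so small a value cannot come from the spread of 3 mice alone. P-values and counts without mouse 4 are therefore no measure of agreement among mice 1 to 3. With no variance trend the fit on 4 mice called 251 risen and 50 fallen regions. A region shared by all 8 libraries lay within 10 kb of 14357 of 21887 protein-coding genes (65.6%). Among marker genes of stem cells 18 of 22 had one. So did 11 of 12 granulocyte-monocyte progenitor genes, 15 of 16 mature neutrophil genes and 12 of 13 erythroid genes. So did 14 of 14 monocyte and macrophage, 13 of 13 dendritic cell and 11 of 12 B cell genes, although cells carrying B220, a marker of B cells, had been removed. At the other end of the order stood genes of T and NK cells (8 of 14), stroma and endothelium (8 of 13), and mast cells and basophils (4 of 12). Open chromatin at a gene does not show that the gene is expressed, and in bulk samples more cells of a type and more accessibility per cell cannot be told apart.

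The peaks of the 8 lists merged into 90534 regions on the main chromosomes. Of these, 71679 had a call in 2 or more libraries, and 29104 had one in each of the 8. In the 29104 shared regions the reads at the highest summit were compared within mice, on a log2 scale, with libraries scaled to equal medians. After IL-1β, 577 regions were higher (1.98%) and 152 were lower (0.522%) past an adjusted p of 0.05 (limma with mouse as a block, two-sided, Benjamini-Hochberg). The median change of all 29104 regions was 0.00. The risen regions went from a median of 23.2 to 42.0 scaled reads, and the fallen ones from 43.2 to 24.0. The change had the same direction in 4 of 4 mice for 570 of the 577 risen and 151 of the 152 fallen regions. These regions were selected by changes within the same 4 mice, so this agreement is largely built in. Of all 29104 shared regions, 3453 were higher in 4 of 4 mice. The median change of the risen regions was 0.65, 0.77, 0.86 and 1.03 in mice 1 to 4, and that of the fallen ones -0.78, -0.61, -0.75 and -0.97, so that mouse 4 showed the largest change both ways.

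Leaving out mouse 4 raised the counts to 1188 risen (4.08%) and 505 fallen (1.74%), and 574 of the 577 risen and 147 of the 152 fallen regions remained called. The limit given above for p-values without mouse 4 applies to these counts. Leaving out mouse 3 left 6 risen and 2 fallen regions, although all 577 and all 152 kept their direction. Leaving out mouse 1 gave 410 and 76, and leaving out mouse 2 gave 210 and 45. A fit with no term for the mouse called 217 and 42. Scaling each library by its background in place of equal medians moved the median of all regions to -0.28, so that 136 regions rose (0.467%) and 1732 fell (5.95%). Under that scaling 135 of the 577 risen and all 152 fallen regions were still called, and every one of them kept their direction. The counts by direction thus depend on the scaling, and changes below are relative to the median shared region.

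**Figure D1:**
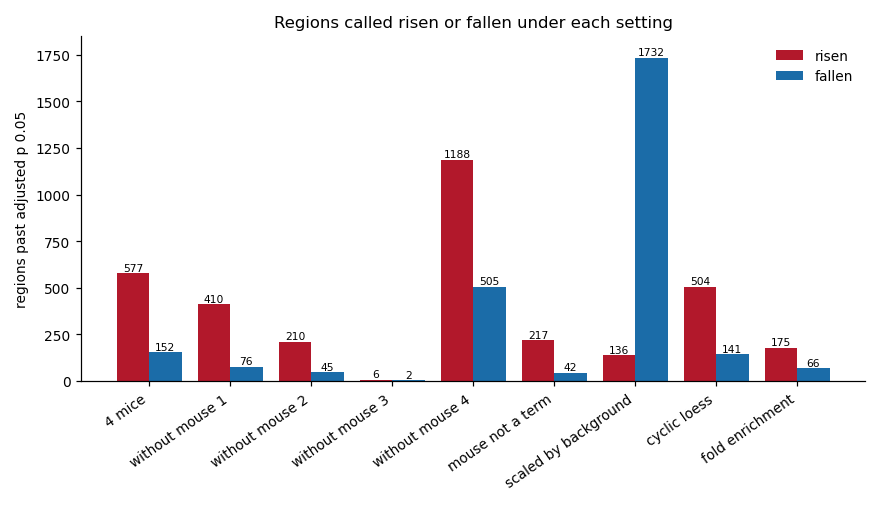
Number of shared regions past adjusted p 0.05 (y axis) that rose or fell after IL-1β in diabetic libraries, for the fit on 4 mice and for 8 other settings (x axis). Without mouse 4 the counts are the highest of the mouse settings, 1188 and 505; without mouse 3 they are 6 and 2; scaling by background turns the balance to 136 and 1732.

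**Figure D2:**
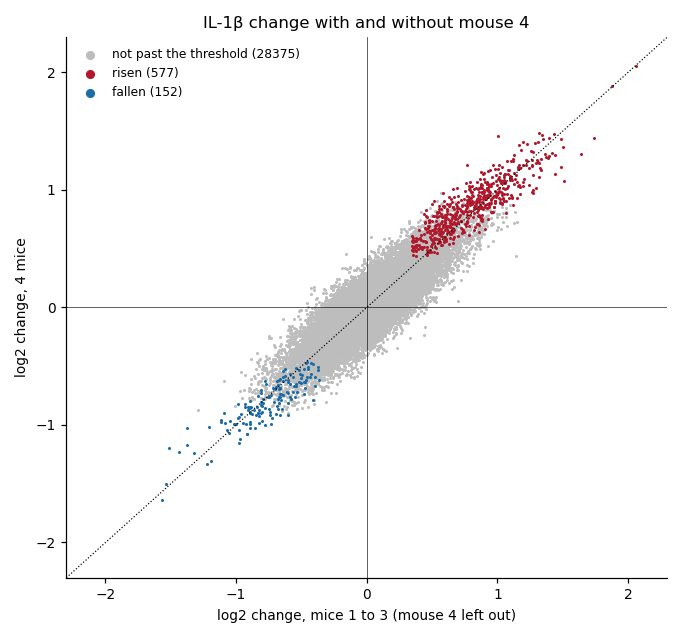
Log2 change after IL-1β of the 29104 shared regions fitted on 4 mice (y axis) and on mice 1 to 3 (x axis), 1 point per region. The dotted line marks equal values; the 577 risen and 152 fallen regions lie on the same side of 0 on both axes, and Itgam stands above the line, at 1.46 with and 1.0 without mouse 4.

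The largest rise was in a region 3520 bp from Ankrd12, an ankyrin repeat gene (chr17:65961439-65962183, mm10). Its scaled reads were 11.6, 7.74, 9.62 and 11.1 at baseline in mice 1 to 4 and 39.8, 40.7, 38.6 and 46.0 after IL-1β. Every IL-1β library was above every baseline library, and the mean went from 10.0 ± 1.72 to 41.3 ± 3.24 (SD, n = 4), which is 2.06 on the log2 scale (SE 0.21, limma adjusted p = 0.000158). A region 229 bp from Hspb7, which encodes a small heat shock protein, had 7.71, 9.46, 11.8 and 11.1 reads at baseline and 30.8, 37.1, 37.5 and 41.3 after IL-1β. The groups did not overlap there either, with a change of 1.88 in log2 (SE 0.21, limma adjusted p = 0.000211). Ankrd12, Hspb7 and a region in Cdk6, a kinase of entry into the cell cycle, were the 3 rises among the named regions that also passed the test without mouse 3 (log2 2.08, 1.96 and 1.43). In Cdk6 the 4 baseline libraries lay very close together, at 19.3, 19.8, 19.2 and 19.4 reads, and the IL-1β libraries at 42.8, 53.9, 52.3 and 62.5 (log2 1.43, SE 0.17, limma adjusted p = 0.000361).

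Kcnn4, a calcium-activated potassium channel, had 2 risen regions. The one 1855 bp from the gene (chr7:24387067-24387671) had 20.3, 27.5, 16.3 and 11.1 reads at baseline and 47.7, 53.9, 54.6 and 43.6 after IL-1β, or 1.48 in log2 (SE 0.19, limma adjusted p = 0.000651). At its promoter the change was 1.07 (SE 0.13, limma adjusted p = 0.000361). Emp1, which encodes an epithelial membrane protein, rose at its promoter (chr6:135362536-135363160) from 8.68, 12.9, 13.3 and 12.5 reads to 27.8, 27.4, 38.6 and 37.7, with no overlap of the groups (log2 1.48, SE 0.21, limma adjusted p = 0.00119). For Itgam, the CD11b integrin chain of myeloid cells, the size of the change depended on mouse 4, whose baseline was far below the other 3. The region 11300 bp from the gene had 32.8, 31.8, 31.8 and 9.69 reads at baseline and 57.7, 62.8, 73.9 and 69.5 after IL-1β (log2 1.46, and 1.0 without mouse 4). The other 6 of the 12 largest rises lay at Fmnl2 (a formin of the actin cytoskeleton), Fto (an RNA demethylase), Grhl1 (a grainyhead-like transcription factor), Rasa2 (a Ras GTPase activator), Ccdc97, and Pmepa1 (a membrane protein that restrains TGF-β signalling), with log2 changes between 1.36 and 1.44. In all 12 the groups did not overlap, which was the case, in this direction, for 1313 of all shared regions (4.51%). The 12 were picked by their change in these same libraries, so the separation of the groups is largely built in.

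The largest fall lay 19230 bp from Suco (chr1:161896067-161896509). Scaled reads there were 62.7, 49.9, 61.4 and 55.3 at baseline and 28.8, 14.1, 18.2 and 15.3 after IL-1β, a fall of the mean from 57.3 ± 5.91 to 19.1 ± 6.70 (SD, n = 4). The groups did not overlap, and the change was -1.64 in log2 (SE 0.17, limma adjusted p = 0.000158). It was the only fall among the named regions that also passed without mouse 3 (-1.60). A region in Arhgap26, a GTPase activator, followed with -1.51 (SE 0.20, limma adjusted p = 0.000651). In Vrk1, a nuclear kinase, reads were 56.9, 50.7, 54.0 and 37.4 at baseline and 23.9, 20.3, 20.5 and 18.9 after IL-1β (log2 -1.24, SE 0.17, limma adjusted p = 0.00077). At Tbc1d10c, a Rab GTPase activator, the change was larger without mouse 4. Reads were 63.6, 55.0, 52.5 and 24.9 at baseline and 22.9, 20.3, 17.0 and 21.2 after IL-1β, giving -1.19 with and -1.51 without mouse 4. The other falls among the 12 largest were at Ssbp2 (a partner of the LIM-domain binding protein), Zfp831, Ppp1r12b (a myosin phosphatase subunit), Mbnl2 (a splicing factor), Hs1bp3, Spag6l, Gpr180 and Fry, between -1.07 and -1.33. Again no groups overlapped, against 767 of all shared regions (2.64%) in this direction, and again the selection largely builds this in.

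**Figure D3:**
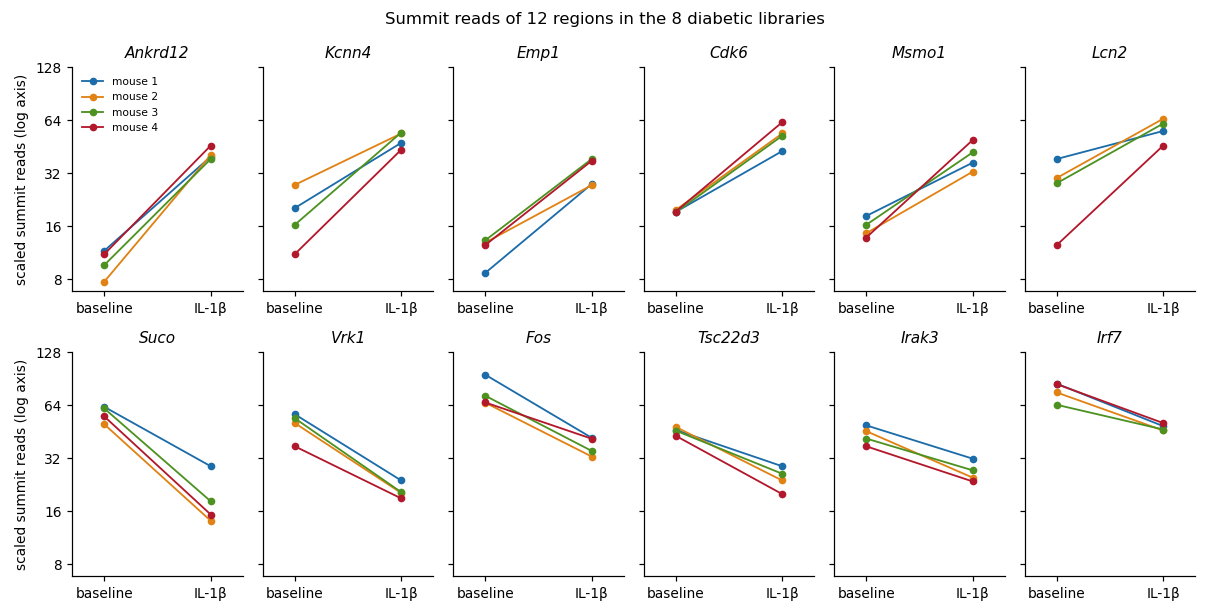
Scaled summit reads (y axis, log scale) at baseline and after IL-1β (x axis) for 12 regions, with 1 line per mouse. Ankrd12, Cdk6 and Suco move in parallel in the 4 mice, whereas the baseline of mouse 4 lies far below the other baselines in Lcn2 (12.5 against 28.1 to 38.6).

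Genes of the IL-1 receptor and its proximal signalling (20 genes, 65 shared regions within 10 kb) had 3 risen and 1 fallen region, with a median change of 0.04. The counts were 4 and 2 without mouse 4, and 0 and 8 with background scaling. Over all regions 1.98% rose and 0.522% fell, with a median of 0.00. Without mouse 4 those shares were 4.08% and 1.74%, and with background scaling 0.467% and 5.95%. The shares given here, and those for calls at the end of this paragraph, stand beside the counts of later lists too. Irak2 and Irak3 moved in opposite directions. Irak2, a kinase-like adaptor that carries the signal onwards, rose in 2 intragenic regions. The first (chr6:113654780-113655371) had 21.2, 23.2, 22.2 and 26.3 reads at baseline and 39.8, 31.8, 53.4 and 35.4 after IL-1β, without overlap (log2 0.76, SE 0.19, limma adjusted p = 0.0319). The second (log2 0.77, SE 0.19, limma adjusted p = 0.0342) overlapped between groups, since baseline 1 with 35.7 reads exceeded IL-1β 2 with 30.9. A further Irak2 region was gained by calls, which means called in 4 of 4 IL-1β and 0 of 4 baseline libraries. Irak3, which encodes the inhibitory IRAK-M, fell from 49.2, 45.6, 41.4 and 37.4 reads to 31.8, 24.8, 27.3 and 23.6, again without overlap (log2 -0.69, SE 0.16, limma adjusted p = 0.0217). Pik3ap1, an adaptor linking receptors to PI3 kinase, rose by 0.57 with overlapping groups. A region within Sigirr, an inhibitor of the receptor, was also gained, although the gene nearest to it was Ano9. That made 2 gained and 0 lost (4 of 4 baseline, 0 of 4 IL-1β) of 134 regions called in 2 or more libraries at this list, where 0.492% of all such regions were gained and 0.368% lost.

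None of 12 shared regions at the 5 NF-κB subunit genes passed limma's adjusted threshold in either direction, and 5 were higher and 0 lower at an unadjusted p below 0.05, where 2461 and 1534 of all 29104 were. Their median change was 0.22, the highest of the 28 gene lists. Mean levels in the baseline libraries lay between -0.16 and -0.04 and in the IL-1β libraries between 0.04 and 0.18 (log2 against the other libraries), so the groups did not overlap even though no region passed. Without mouse 4, 1 region rose and 0 fell, with a median of 0.17. With background scaling none passed and the median was -0.06. Mean levels without overlap were not particular to this list. The list of NF-κB inhibitors and feedback genes lay between -0.14 and 0.01 at baseline and between 0.04 and 0.13 after IL-1β. Monocyte and macrophage genes lay between -0.18 and 0.02 at baseline and between 0.04 and 0.10 after IL-1β.

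Inhibitors and feedback genes of NF-κB (19 genes, 60 regions) had 4 risen and 0 fallen regions, and 9 and 0 without mouse 4, but 1 and 2 with background scaling. Over all shared regions the shares were 1.98% and 0.522%, 4.08% and 1.74%, and 0.467% and 5.95% in the same order. Tnip1, a partner of the deubiquitinase A20, rose in an intragenic region (chr11:54936009-54936787) from 32.8, 32.7, 34.0 and 15.2 reads to 58.7, 53.9, 55.7 and 58.9 (log2 1.06, SE 0.18, limma adjusted p = 0.00422; 0.76 without mouse 4). The 3 other baselines lay close together and mouse 4 far below them. Bcl3, an atypical IκB protein, rose 1207 bp from the gene from 54.0, 48.2, 46.6 and 47.0 reads to 77.6, 71.6, 85.2 and 77.8 (log2 0.67, SE 0.12, limma adjusted p = 0.00524). Zc3h12a, the RNase Regnase-1, rose from 29.9, 41.3, 28.9 and 40.1 reads to 53.7, 49.5, 42.1 and 63.6 (log2 0.58). The groups did not overlap at Bcl3 or Zc3h12a. The region counted for Nfkbid, another atypical IκB gene, lay nearer to Tyrobp, an adaptor of myeloid receptors (log2 0.51, with overlapping groups). Of 121 regions called in 2 or more libraries 4 were gained, at Otud7b, Traf1, Zc3h12a and Nfkbid (the last nearest to Hcst), and 0 were lost. In the control libraries the list had 16 risen and 1 fallen of 58 regions, where 9.39% of all regions rose and 5.01% fell.

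AP-1 and immediate early genes (26 genes, 84 regions) had 1 risen and 5 fallen regions (4 and 9 without mouse 4, 1 and 11 with background scaling), with a median of -0.02. All shared regions had shares of 1.98% and 0.522%, 4.08% and 1.74%, and 0.467% and 5.95% in these settings. The falls were at Fos, Fosb and Dusp1, genes that respond quickly to many stimuli. Fos fell in 2 of its 4 shared regions. At 1380 bp from the gene (chr12:85472102-85472510) reads were 95.5, 66.2, 72.5 and 66.4 at baseline and 41.8, 32.7, 35.2 and 41.3 after IL-1β, so that every baseline library was higher (log2 -0.98, SE 0.13, limma adjusted p = 0.000696). The Fos promoter fell by 0.52 on the log2 scale. Near Fosb reads were 127, 108, 108 and 123 at baseline and 77.6, 65.4, 69.3 and 79.0 after IL-1β (log2 -0.68, SE 0.11, limma adjusted p = 0.00292), and its promoter fell by 0.53. Dusp1, a phosphatase of MAP kinases, fell by 0.71 from 90.6, 57.6, 76.2 and 60.9 reads to 52.7, 38.9, 36.4 and 46.0, while its log2 fold enrichment changed upwards, by 0.26, without passing the test. The 1 rise was near Nr4a2, an orphan nuclear receptor (log2 1.19, SE 0.22, limma adjusted p = 0.00638), from 7.71, 6.02, 7.40 and 12.5 reads to 16.9, 17.7, 18.2 and 21.2. Of 132 regions called in 2 or more libraries 0 were gained, and 1, within Jun, was lost, with 75, 65, 82 and 51 unscaled reads at baseline. Its mean −log10 q, the peak caller's measure of a call, was 5.54. The median was 7.19 over all regions called in 2 or more libraries. In control mice the Jun region was called in 4 baseline and 2 IL-1β libraries.

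At Fos the local background changed together with the summit. The peak caller's local background at the Fos summit was 31.4, 26.1, 30 and 12.3 reads at baseline and 14.0, 11.2, 9.22 and 7.86 after IL-1β. The deposited fold enrichment divides by that background, and with it the log2 change at Fos was 0.17 in place of -0.98. The direction turned in the same way at 7 other named regions, of Dusp1, Anxa1, Slc7a11, Retnlg, Adgre5, Lcn2 and Itgb2, and in each case the change in fold enrichment did not pass the test. At Lcn2 the local background rose, from 4.72, 3.47, 4.50 and 0.856 reads to 9.44, 11.1, 8.07 and 5.94. A background taken around a summit can include reads of the peak itself, and accessibility of the whole locus was not measured apart from it.

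Genes of the glucocorticoid response (14 genes, 40 regions) had 3 risen and 3 fallen regions (4 and 5 without mouse 4, 0 and 7 with background scaling). The shares of all shared regions were 1.98% and 0.522% (4.08% and 1.74% without mouse 4, 0.467% and 5.95% with background scaling). Tsc22d3, which encodes the glucocorticoid-induced leucine zipper protein, fell 1506 bp from the gene from 46.3, 48.2, 45.9 and 42.9 reads to 28.8, 23.9, 26.1 and 20, without overlap (log2 -0.90, SE 0.16, limma adjusted p = 0.00517). Anxa1, an anti-inflammatory phospholipid-binding protein, fell at its promoter by 0.74, with a log2 fold enrichment that changed upwards by 0.07 and did not pass, and the Dusp1 region above counts here too. The rises were at Sgk1, a serum- and glucocorticoid-regulated kinase (log2 1.01), Zbtb16, a zinc finger factor (1.03), and Klf9. Sgk1 went from 17.4, 12.9, 14.1 and 16.6 reads to 36.8, 28.3, 28.4 and 29.5. Calls went against some of these directions: a region 2985 bp from Anxa1 was gained, and regions within Sgk1 and Nr3c1, the glucocorticoid receptor gene, were lost (1 gained and 2 lost of 88). The clock gene Per2, also a glucocorticoid target, was outside the list, and a region within it was called in 4 of 4 baseline libraries with 73, 61, 76 and 34 reads and in none after IL-1β.

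Cytokine and chemokine genes (26 genes, 40 regions) had 2 risen and 0 fallen regions, with a median of 0.09 (4 and 0 without mouse 4, 1 and 2 with background scaling). Beside this and the next lists stand 1.98% risen and 0.522% fallen of all shared regions. These shares became 4.08% and 1.74% without mouse 4, and 0.467% and 5.95% with background scaling. Il10, which encodes an anti-inflammatory cytokine, rose 544 bp from the gene (chr1:131025514-131026275). Its reads were 38.6, 31.0, 30.3 and 30.4 at baseline and 60.7, 50.4, 63.6 and 68.4 after IL-1β, without overlap (log2 0.90, SE 0.14, limma adjusted p = 0.00229). A second Il10 region, within the gene, was the 1 gained by calls of 96 regions in the list, with 0 lost. Il12b, a subunit of interleukins 12 and 23, rose by 0.93 from 18.3, 12.9, 17.0 and 11.1 reads to 28.8, 30.1, 23.9 and 28.3 (limma adjusted p = 0.0288). Among Jak, Stat and Socs genes (15 genes, 48 regions) 2 regions rose and 0 fell (4 and 2 without mouse 4), and none passed with background scaling. They lay 9819 bp from Jak2 (log2 0.74), the kinase of many growth factor receptors, and at the Nab2 promoter next to Stat6 (0.69). A region within Stat5b was lost by calls (0 gained and 1 lost of 113). Interferon regulatory factors and response genes (18 genes, 37 regions) had 1 region each way at related factors (2 and 2 without mouse 4, 0 and 4 with background scaling). Irf5 rose at its promoter from 21.2, 22.4, 16.3 and 15.2 reads to 31.8, 32.7, 36.4 and 33.0 (log2 0.85). Irf7 fell at its promoter from 84.9, 75.7, 64.4 and 84.4 reads to 48.7, 46.0, 46.6 and 50.7 (log2 -0.68, SE 0.12, limma adjusted p = 0.00485). Both Irf5 and Irf7 were without overlap between groups.

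Of 38 regions at mature neutrophil genes 3 rose and 1 fell, with a median of 0.16, and of 22 regions at granulocyte-monocyte progenitor genes 3 rose and 0 fell, with a median of 0.07. Without mouse 4 the counts were 3 and 1, and 4 and 0, with medians of 0.04 and 0.12, and with background scaling 1 rose and 2 fell in the first list and none passed in the second. Of all shared regions 1.98% rose and 0.522% fell. That was 4.08% and 1.74% without mouse 4, and 0.467% and 5.95% with background scaling. Lcn2, an iron-siderophore-binding granule protein, rose at its promoter from 38.6, 30.1, 28.1 and 12.5 reads to 55.7, 65.4, 61.4 and 46.0 (log2 1.16, SE 0.18, limma adjusted p = 0.00209), although its log2 fold enrichment changed by -0.08. Mmp9, a granule protease, rose by 0.83 and S100a9, a calcium-binding granulocyte protein, by 0.60. In Mmp9 and S100a9 the groups overlapped. Retnlg, a resistin-like gene of neutrophils, fell from 53.0, 37.8, 39.2 and 31.8 reads to 30.8, 25.6, 23.9 and 23.6 (log2 -0.62), while its log2 fold enrichment changed upwards, by 0.10, without passing the test. Csf3r, the receptor of granulocyte colony-stimulating factor, rose at its promoter from 36.6, 31.0, 25.2 and 12.5 reads to 49.7, 39.8, 45.5 and 34.2 (log2 0.78, SE 0.19, limma adjusted p = 0.0321). There the groups overlapped as well, and the change was 0.55 without mouse 4, whose baseline was the lowest. A second Csf3r region, 5131 bp away, rose by 0.70. Fcgr3, a low-affinity IgG receptor, rose at its promoter by 0.79, with 55.0 reads in baseline 1 above 2 of the IL-1β libraries. By calls 1 of 90 neutrophil regions was gained, 532 bp from Itgam, and 1 of 58 progenitor regions, 40 bp from Fcgr3, with 0 lost in both lists.

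The libraries differed in these same markers before stimulation. The cells were depleted with Gr1, a marker of granulocytes, and the mean level of the neutrophil list was -0.56 in baseline 4 and 0.32 in baseline 1 (log2 against the other 7 libraries), while the 4 IL-1β libraries lay between -0.13 and 0.26. The granulocyte-monocyte progenitor list stood at -0.44 in baseline 4, and the erythroid list at 0.37 there and at -0.46 in baseline 1. Their part in the neutrophil and progenitor results was not tested. Erythroid genes (33 regions) and megakaryocyte genes (22 regions) shared 1 risen region, at Nfe2, a factor of both lineages (log2 0.63), with 0 fallen. Without mouse 4 they had 2 and 3 risen and 0 fallen regions, and with background scaling 0 risen and 1 fallen each. For Runx, Cebp and other myeloid fate factors 1 of 83 regions (1.2%) rose, in Runx2 (log2 0.85), and 0 fell (3 and 1 without mouse 4, 0 and 3 with background scaling). Over all shared regions 1.98% rose and 0.522% fell. The shares were 4.08% and 1.74% without mouse 4, and 0.467% and 5.95% with background scaling. By calls 1 of 206 regions of that list was gained, in Runx2, and 2 were lost, within Ets1 and within Myb, a factor of progenitor growth. Among all regions called in 2 or more libraries 0.492% were gained and 0.368% lost. Stem cell and self-renewal genes (45 regions) had 1 rise, in the Ets factor Erg (log2 1.02), 0 falls and the lowest median of the 28 lists, -0.12. Without mouse 4 the counts were 1 and 0 and the median was -0.03, and other lists were lower (-0.09 for mast cells and basophils and for adhesion). With background scaling 0 rose and 3 fell. By calls 2 of 129 stem cell regions were gained, at Kit and near Tal1. B cell genes had 1 risen region of 14, at the Arhgef1 promoter near Cd79a (0.51), and 0 fallen, with the same counts without mouse 4 and none with background scaling. Regions at genes of monocytes and macrophages (32), dendritic cells (43), mast cells and basophils (12), T and NK cells (12), and stroma and endothelium (12) had 0 risen and 0 fallen in limma. At an unadjusted p below 0.05, 6 monocyte and macrophage regions were higher and 0 lower, and in the other 4 lists at most 2 regions moved either way. Without mouse 4, 1 monocyte and macrophage region rose and 1 fell, 1 dendritic cell region rose, and 1 mast cell and basophil region fell. With background scaling 0 rose in these 5 lists, and 2 dendritic cell and 2 mast cell and basophil regions fell. By calls a region near Pdgfrb, of the stroma list, was gained, and regions in Tcf4, of the dendritic cell list, and near Ebf1, of the B cell list, were lost.

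**Figure D4:**
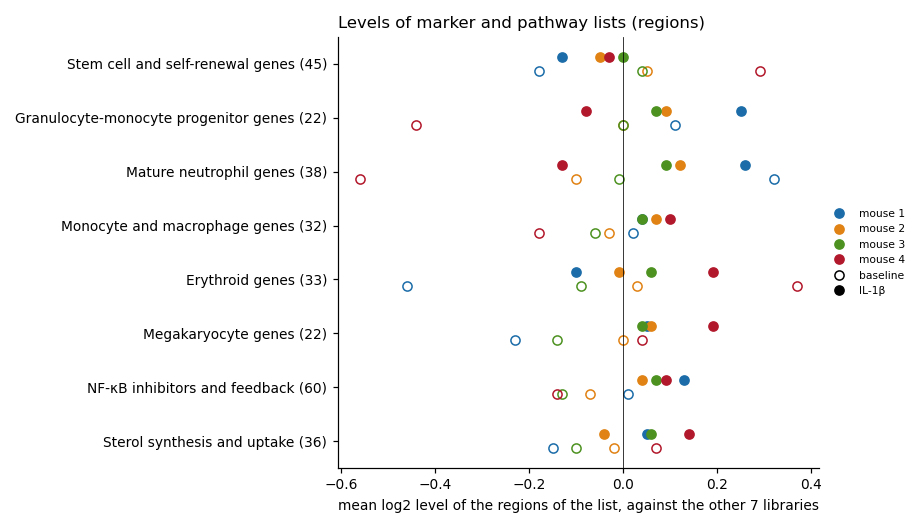
Mean log2 level of the shared regions of 8 gene lists (y axis, number of regions in brackets) in each diabetic library, against the mean of the other 7 libraries (x axis). Open circles are baseline and filled circles IL-1β libraries, coloured by mouse; the baseline libraries of mice 4 and 1 lie at opposite ends of the neutrophil list (-0.56 and 0.32) and of the erythroid list (0.37 and -0.46).

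Among metabolic genes, sterol synthesis and uptake (19 genes, 36 regions) had 2 risen and 0 fallen regions under equal medians, without mouse 4, without a mouse term and with background scaling alike. For comparison, 1.98% of all shared regions rose under equal medians, 4.08% without mouse 4 and 0.467% with background scaling. Msmo1, an enzyme of cholesterol synthesis, rose in an intragenic region (chr8:64726105-64726793) from 18.3, 14.6, 16.3 and 13.8 reads to 36.8, 32.7, 42.1 and 49.5 (log2 1.34, SE 0.20, limma adjusted p = 0.00154). The other region, at the promoter of the NADPH oxidase subunit gene Cyba, counts for the list through Mvd, another enzyme of the pathway, and rose by 0.87. In both regions the groups did not overlap. Neither region passed the test without mouse 3. The Msmo1 region passed with fold enrichment and with reads summed over summits, and the Cyba region with neither. By calls 1 of 83 regions, within Fdft1, the squalene synthase gene, was gained and 0 were lost. The median of the list was 0.03, near that of all regions.

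Glycolysis and glucose uptake genes (22 genes, 83 regions) had 3 risen and 1 fallen region (5 and 1 without mouse 4), but 0 and 3 with background scaling. For the lists of this paragraph the shares over all shared regions are 1.98% risen and 0.522% fallen. They are 4.08% and 1.74% without mouse 4, and 0.467% and 5.95% with background scaling. Slc2a1, the glucose transporter GLUT1, rose from 41.5, 29.2, 28.1 and 19.4 reads to 53.7, 48.6, 55.7 and 47.1 (log2 0.84, SE 0.16, limma adjusted p = 0.00854). Pfkfb3, which makes the activator of phosphofructokinase, rose by 1.03, and Hk1, a hexokinase, by 0.93 with overlapping groups. Pfkp, a phosphofructokinase, fell from 62.7, 57.6, 52.5 and 67.8 reads to 46.7, 39.8, 39.8 and 42.4 (log2 -0.51). Slc2a1, Pfkfb3 and Hk1 did not pass with background scaling. By calls 2 of 165 regions were gained, at Gpi1 and near Ldha, enzymes of glycolysis and lactate formation, and 0 were lost. Regions at genes of insulin signalling and glucose sensing (20 genes, 59 regions) had 0 risen and 0 fallen (limma; 3 and 2 at an unadjusted p below 0.05), with a median of -0.02. These counts became 0 and 1 without mouse 4, and 0 and 4 with background scaling. By calls 1 of 148 regions, in the insulin receptor gene Insr, was gained and 0 were lost. Heat shock and oxidative stress genes (19 genes, 49 regions) had 0 risen and 3 fallen regions (4 and 3 without mouse 4, 0 and 7 with background scaling). Slc7a11, the cystine transporter, fell in 2 regions, by 0.86 and 0.64. The second had overlapping groups and a log2 fold enrichment change of 0.29, upwards. Txnrd1, thioredoxin reductase, fell at its promoter by 0.53, from 93.5, 86.9, 77.7 and 120 reads to 72.6, 56.6, 70.5 and 60.1.

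In the adhesion and marrow retention list (14 genes, 52 regions) 1 region rose and 2 fell (4 and 6 without mouse 4, 0 and 12 with background scaling). All shared regions, for this and the lists that follow, had 1.98% risen and 0.522% fallen. Their shares were 4.08% and 1.74% without mouse 4, and 0.467% and 5.95% with background scaling. By calls 0.492% of all regions called in 2 or more libraries were gained and 0.368% lost. Itgb2, the beta chain of leukocyte integrins, rose by 0.63, with a log2 fold enrichment change of -0.04. Mef2c, which encodes a transcription factor and no adhesion molecule, fell by 0.76, from 51.1, 43.9, 51.8 and 76.1 reads to 26.9, 29.2, 37.5 and 36.5. Adgre5, the CD97 adhesion receptor, fell by 0.46, with overlapping groups and a log2 fold enrichment change of 0.15, upwards. Of 119 regions called in 2 or more libraries 4 were gained, at Cd44, Icam1, Selplg and 3662 bp from Itgb2 (nearest to Fam207a), and 1, also at Cd44, was lost. Cell cycle entry genes (63 regions) had the Cdk6 rise and 0 falls, but 4 and 1 without mouse 4, and 1 and 2 with background scaling. Histone methylation enzymes (31 regions) and leukotriene and prostaglandin enzymes (42 regions) had 0 risen and 0 fallen in limma. At an unadjusted p below 0.05 they had 2 and 0, and 8 and 2, and without mouse 4 the second list had 4 risen regions and the first 0. With background scaling 1 region of the second list fell. A region within Setd7, a lysine methyltransferase, was however called in 4 of 4 baseline libraries, with 27, 23, 38 and 13 reads, and in 0 of 4 IL-1β libraries (0 gained and 1 lost of 68). It was called in 4 control baseline and 0 control IL-1β libraries as well. Across the 28 lists the medians ran from -0.12 to 0.22, and all 28 were below 0 with background scaling (-0.39 to -0.06).

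Some genes had several risen regions. Akna, which encodes an AT-hook protein, rose in 4 of its 6 shared regions (log2 0.44 to 0.82). S100a3, in a cluster with S100a2, S100a4, S100a5 and S100a6, rose in 3 of 3 (0.69 to 1.0). Arhgap45, a GTPase activator, and Lfng, which adds sugars to Notch, rose in 3 of 4 each, and Mefv, which encodes the inflammasome sensor pyrin, in 3 of 5 (0.95 to 1.25). On the falling side Eif2ak2, the kinase PKR, fell in 2 of 2 regions, which it shares by position with Gm26637 and Sult6b1, and Heca in 2 of 3. At least 2 risen regions were found at 48 genes and at least 2 fallen regions at 10, of 8986 genes with at least 2 shared regions. A region can count for several neighbouring genes.

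The moving regions lay away from gene ends. Within 1 kb of a gene end were 10.4% of the risen and 13.2% of the fallen regions, against 35.9% of all shared regions. Inside gene bodies but more than 1 kb from a gene end were 49.7%, 49.3% and 34.7%. Regions at gene ends are left out of this class, so a smaller share at gene ends leaves more regions for it. These shares therefore do not show that moving regions favoured gene bodies. Regions were tested where they were called in all 8 libraries, and the share of gene ends among the 71679 regions was 20.3%. RefSeq's promoter windows for GRCm38.p6, 250 bases before to 50 after a gene's start, overlapped 56 risen, 19 fallen and 8901 of all tested regions. The AP-1 motif TGANTCA, which reads alike on both strands, was in the windows of 13 of the 56 risen (23.2%), 0 of the 19 fallen and 473 of the 8901 tested regions (5.31%), and in 7.81% of all 32851 windows. Without mouse 4 it was in 27 of 137 risen (19.7%) and 4 of 75 fallen (5.33%), so that the 0 among fallen promoters did not hold. The κB consensus, searched on both strands, was in 9 of 56 (16.1%), 2 of 19 (10.5%) and 8.35% of those regions, and in 5.8% of all windows (15.3% of the risen and 9.33% of the fallen without mouse 4). GC boxes (GGGCGG, both strands) were in 48.2% of the risen, 36.8% of the fallen and 70% of the tested regions (52.6% and 45.3% without mouse 4), and in 35.7% of all windows. The RUNX motif TGTGGTT was in 6 of the 56 risen, 0 of the 19 fallen and 4.29% of the tested regions, and the PU.1 motif GAGGAAGT in 4, 0 and 3.91%. The C/EBP motif TTGCNNCAA was in 3, 0 and 1.71%, the cyclic AMP response element TGACGTCA in 0, 1 and 3.75%, and the E-box CACGTG in 7, 1 and 12.5%. In the same order of motifs, all windows held them in 5.27%, 3.2%, 2.08%, 1.79% and 7.15%. These were searched on both strands. With mouse 4 left out the shares were 8.76% of risen and 9.33% of fallen for RUNX and 8.03% and 6.67% for PU.1. The other shares were then 4.38% and 1.33% for C/EBP, 2.19% and 5.33% for the cyclic AMP response element, and 11.7% and 6.67% for the E-box. These shares are descriptions, since motif content was not tested and a match is not a binding site.

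The stretches below show where the letters lie in promoters that moved, with the match in capitals, in the direction of the gene, from RefSeq's GRCm38.p6 promoter table. Emp1 (chr6:135362756-135362822 and chr6:135362876-135362930, plus strand) is shown as the promoter with the largest change and 2 AP-1 matches, and Sh2d1b1 (chr1:170277081-170277147, plus strand; log2 0.95) and Apobr (chr7:126584782-126584848, plus strand; 0.91) as further risen promoters with AP-1 matches. Kcnn4 (chr7:24370200-24370262, plus strand), Fcgr3 (chr1:171059516-171059585, minus strand) and Csf3r (chr4:126024500-126024569, plus strand) are shown as risen promoters with κB matches. The Fos promoter (chr12:85473646-85473715, plus strand) is a fallen promoter that holds a κB match too, so the letters alone do not separate the directions.
Emp1 first AP-1 match: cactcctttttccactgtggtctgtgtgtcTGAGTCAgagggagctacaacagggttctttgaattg
Emp1 second AP-1 match: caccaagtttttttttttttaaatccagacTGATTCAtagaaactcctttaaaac
Sh2d1b1 AP-1 match: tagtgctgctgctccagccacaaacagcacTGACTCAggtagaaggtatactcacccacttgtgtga
Apobr AP-1 match: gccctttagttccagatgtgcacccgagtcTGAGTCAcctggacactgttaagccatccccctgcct
Kcnn4 κB match: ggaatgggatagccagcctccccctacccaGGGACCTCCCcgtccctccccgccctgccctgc
Fcgr3 κB match: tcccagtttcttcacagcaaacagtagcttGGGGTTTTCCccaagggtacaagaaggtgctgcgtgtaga
Csf3r κB match: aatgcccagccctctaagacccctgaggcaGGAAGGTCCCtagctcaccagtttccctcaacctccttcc
Fos κB match: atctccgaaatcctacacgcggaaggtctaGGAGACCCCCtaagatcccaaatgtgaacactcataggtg

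Of 1005 miRNA hairpins in RefSeq's table, 441 had a shared region within 10 kb. Counted once each, 13 of the 650 shared regions near hairpins rose (2.0%) and 1 fell (0.154%), close to the 1.98% of all regions for rises, and without mouse 4 it was 23 (3.54%) and 5 (0.769%). Of 1285 regions near hairpins called in 2 or more libraries 11 were gained (0.856%) and 1 was lost (0.0778%). One of the risen regions lay at Mir142, whose miRNA is made in blood cells. This region, chr11:87756481-87756853, ends 11 bp before this hairpin and overlaps that of Mir142b on the other strand. Its reads were 70.4, 57.6, 54.0 and 40.1 at baseline and 91.5, 76.9, 86.4 and 53.0 after IL-1β, with overlapping groups (log2 0.47, SE 0.12, limma adjusted p = 0.0393), and a region 2039 bp from the hairpin was gained by calls. Mir21a, a miRNA induced in many inflammatory settings, had a risen region 6429 bp away, with 54.0, 35.3, 43.7 and 20.8 reads at baseline and 71.6, 54.8, 56.8 and 57.8 after IL-1β (log2 0.72, SE 0.16, limma adjusted p = 0.0208). That region was nearer to Tubd1, and the baseline of mouse 4 was again the lowest. A region 8275 bp from Mir139, and nearest to Pde2a, rose by 0.84. All 3 regions passed without mouse 4 as well. The 7 mature miRNAs of the 4 hairpins at these 3 regions are given from RefSeq with the seed, bases 2 to 8, in capitals, to show that no seed is shared among them. The libraries hold no measure of the miRNAs themselves.
mmu-miR-142a-3p: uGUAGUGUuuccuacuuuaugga
mmu-miR-142a-5p: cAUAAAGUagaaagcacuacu
mmu-miR-142b: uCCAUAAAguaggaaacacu
mmu-miR-21a-5p: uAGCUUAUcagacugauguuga
mmu-miR-21a-3p: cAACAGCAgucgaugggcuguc
mmu-miR-139-5p: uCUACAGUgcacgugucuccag
mmu-miR-139-3p: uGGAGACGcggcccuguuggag

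By calls alone, 353 of the 71679 regions (0.492%) were called in 4 of 4 IL-1β and 0 of 4 baseline libraries, and 264 (0.368%) the other way round. No test was made per region. Reads given for gained and lost regions, here and above, are unscaled. The gained regions with the highest mean −log10 q lay in Cflar, which encodes the apoptosis inhibitor c-FLIP, with 29, 37, 33 and 33 reads in the IL-1β libraries, and in Adgrl4, Vsir (the checkpoint receptor VISTA), Arhgef3 and Bhlhe40 (a transcription factor of the clock and of cytokine responses), with 1 near Prss56. Bhlhe40 had 31, 45, 41 and 34 reads. The lost regions with the highest values lay near Ddx6, Usp46 and Elk4 and in Per2, Jdp2 (an AP-1 repressor) and Pde4b (a cAMP phosphodiesterase). In Jdp2 the reads were 32, 32, 34 and 9 at baseline. Gene ends made up 7.37% of the gained and 6.82% of the lost regions. List length entered these counts: baseline libraries held 59564 ± 9604 peaks and IL-1β libraries 53624 ± 7624 (SD, n = 4 each), lower in 3 of 4 mice (exact sign-flip permutation test within mice, two-sided, p = 0.375). With the same number of peaks from each library, 47255, there were 506 gained and 172 lost regions. Without mouse 4 the counts were 564 and 1075 (3 of 3 against 0 of 3).

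Summits no more than 1 kb from a gene end made up 26.7% ± 2.27 of those in baseline libraries and 28.5% ± 2.24 of those in IL-1β libraries (SD, n = 4, exact permutation p = 0.5). Signal over background divides the median summit reads in shared regions by the background. It was 27.9 ± 3.18 and 23.0 ± 3.38 (SD, n = 4), lower after IL-1β in 4 of 4 mice, with p = 0.125 by the exact permutation test, the smallest that 4 mice allow. This is the ratio that background scaling carries into every region.

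Control mice, which share no library with the diabetic ones, were measured at the same regions in a fit of their own. Of the 577 risen regions 516 were measured in all 8 control libraries. All 516 changed in the same direction, and 451 of them (87.4%) rose past the threshold, where 9.39% of 25105 regions did. Of the 152 fallen regions 136 were measured, 135 had the same direction and 116 (85.3%) fell past the threshold, where 5.01% did. The median change of the risen regions was 0.83 in diabetic and 0.66 in control mice, and that of the fallen ones -0.76 and -0.67. These regions were selected in the diabetic libraries, so the diabetic medians are not independent of the selection. Among regions selected in control mice the order was reversed: the 2357 risen there had medians of 0.42 in control and 0.32 in diabetic mice, and the 1257 fallen there -0.53 and -0.31. Of those, 93.4% and 92.0% had the same direction in diabetic mice. Over all 25105 regions the changes correlated with r = 0.65, given as a description of regions that share libraries.

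Gene by gene, Ankrd12 changed by 2.06 in diabetic and 2.07 in control mice, Suco by -1.64 and -1.72, and Msmo1 by 1.34 and 1.68. Il12b changed by 0.93 and 0.25, where the control value did not pass the test (limma adjusted p = 0.343), and Irak2, in its first region, by 0.76 and 1.22. Of the calls, 319 of the 353 gained regions (90.4%) were called in more IL-1β than baseline control libraries, and 239 of the 264 lost ones (90.5%) in more baseline libraries, where 9.18% and 36.8% of all regions were.

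**Figure D5:**
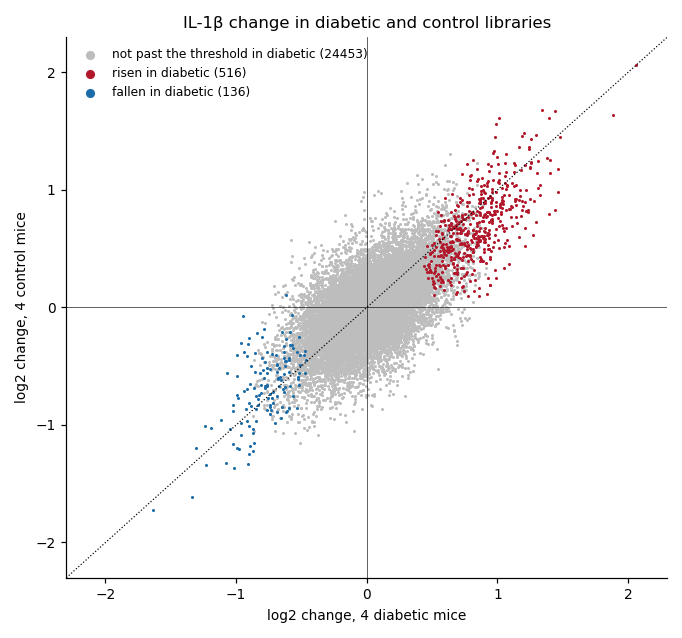
Log2 change after IL-1β in 4 diabetic mice (x axis) and 4 control mice (y axis) for 25105 regions measured in both, 1 point per region, with the dotted line at equal values. All 516 regions that rose in diabetic mice and 135 of 136 that fell lie on the same side of 0 in control mice.

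Whether the response itself differed was tested in 1 fit of all 16 libraries over 24955 regions called in each. None passed (limma, adjusted p below 0.05, 0.0%), with 456 regions higher and 393 lower in diabetic mice at an unadjusted p below 0.05, 3.40% in all, and a smallest adjusted p of 0.986. The median SE of a difference was 0.215, which limits what 4 mice a side can show. No region passed under background scaling, loess, without the mouse term or with any mouse left out, and the smallest adjusted p of those settings was 0.705, without diabetic mouse 3. The 5 regions with the smallest p were at Aff1, Hdgf, Alad, Rilpl1 and Pcx. Near Aff1 the change within mice 1 to 4 was 0.49, 0.33, -0.09 and 0.45 in diabetic mice and -0.46, -0.75, -0.68 and -1.13 in control mice, a difference of 1.05 (SE 0.27, limma adjusted p = 0.986). Near Hdgf it was -0.31, -0.65, -0.86 and -0.63 against 0.33, -0.10, -0.07 and 0.27 (difference -0.72, SE 0.19, limma adjusted p = 0.986). The Aff1 region was higher after IL-1β in 3 of 4 diabetic and 0 of 4 control mice, and the Hdgf region in 0 of 4 and 2 of 4. Neither difference held up after adjustment over all regions.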

How the data were processed

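Peak lists of 8 diabetic libraries, and of 8 control libraries for comparison, were used as deposited, 1 list per library on build mm10. MACS2 2.1.1, Bowtie2 2.2.6, Trim Galore 1.8 and DiffBind 2.4.8 are named, without their roles, per the submitters' processing notes. Shifting for Tn5 and removal of duplicates are not given in the sources used here and would move summits and reads. Each deposited line gives a score, a fold enrichment (a ratio over local background), a −log10 p and a −log10 q from the authors' peak caller. Per the labels' protocols reads were 50-bp single reads.

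Whole reads n and background λ were recovered from fold = (n + 1) / (λ + 1) and the Poisson p, within 0.001 of the −log10 p for 100% of summits in the 8 lists. Peaks overlapping or touching were merged, and log2 reads of the highest summit (no pseudocount) in regions called in all 8 were scaled to equal medians and tested with limma 3.58.1 (trended variance, mouse block, Benjamini-Hochberg 0.05; R 4.3.3, Python 3.11.15). Exact sign-flip tests served values per library. Recovery of reads and the fit were run on simulated data with known answers. The simulation held no library standing apart as baseline 4 does, so it does not give the error rate in these libraries. Depth is known only through background and summit reads. The series design says each sample was split, which pairs the portions. Deviations of the portions from their group means correlated by 0.38, 0.17, -0.02 and 0.30 in mice 1 to 4. P-values rest on 4 mouse samples and, through limma's trended variance, on other regions too.

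Regions named are, from those past the threshold with 4 of 4 mice alike, the 12 that rose and the 12 that fell most, 1 per nearest gene within 50 kb; up to 4 per gene list; the 6 gained and 6 lost regions of highest −log10 q; the 5 smallest p of the difference; and up to 5 genes each way with most called regions. Setd7, Stat5b and Jun enter as list members by calls, and Kcnn4, Fos and Fosb promoters and the miRNAs were chosen after their values were seen. Members and lists were chosen with earlier results of these data known. Of 441 list entries 439 matched a protein-coding gene in RefSeq's GRCm38.p6 table, which has the coordinates of mm10. No genome sequence was used, so sequences come from RefSeq's promoter and miRNA tables. Positions are 1-based. Some items that these rules name are left out and not reported here. Alternatives were other scalings, fits without the mouse block or without each mouse, fold enrichment, regions called in at least 6 libraries, a −log10 q of at least 5, 50 bp overlap, summed summits, no variance trend and all 16 libraries in 1 fit.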

Additional observations from a re-analysis of the deposited data

Results flagged for a closer look

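Among 202 groups of 4 libraries compared (scaled reads of named regions and levels of gene lists), 13 held 1 library far from the other 3, a gap above Dixon's 95% limit, where chance gives about 1 in 20. The number flagged is near that share, and the groups draw on the same 8 libraries. The baseline library of mouse 4 was low at Itgam (9.69 reads against 31.8 to 32.8) and Tnip1 (15.2 against 32.7 to 34.0). Without mouse 4 the changes were 1.0 at Itgam and 0.76 at Tnip1, both past the limma threshold. The IL-1β library of mouse 4 was high at Ccdc97 (56.6 against 43.2 to 45.1) and in the level of megakaryocyte genes (0.19 against 0.04 to 0.06).

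The baseline library of mouse 1 was high at Il10 (38.6 reads against 30.3 to 31.0) and Adgre5 (98.4 against 61.1 to 65.1), and in the levels of mast cell and basophil genes (0.17 against 0.01) and insulin signalling genes (0.05 against -0.03 to -0.02). The IL-1β library of mouse 1 was high at Sgk1 (36.8 reads against 28.3 to 29.5), at a Slc7a11 region (36.8 against 27.1 to 28.4) and in glucocorticoid response genes (0.08 against 0.02), and low at Gpr180 (8.95 reads against 13.6 to 14.1). Itgb2 was low in IL-1β 2 (61.9 reads against 73.9 to 75.6).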

How the results depend on the processing

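Counts of regions risen and fallen were 577 and 152 with the mouse as a block. They were 217 and 42 with no replicate block, between 6 and 1188 risen and between 2 and 505 fallen with 1 mouse left out (lowest without mouse 3, highest without mouse 4), 136 and 1732 with background scaling, 175 and 66 with fold enrichment, 1038 and 336 with all 16 libraries in 1 fit over 24955 regions, 46 and 16 with reads summed over summits, and 251 and 50 with no variance trend. Only peaks of −log10 q 5 or more gave 379 risen regions of 21325. Chosen after seeing the data, background scaling without mouse 4 gave 46 and 402, and loess without mouse 4 gave 984 and 485. Loess, regions called in at least 6 libraries and 50 bp overlap kept both counts within 1.5 times. Of 353 gained and 264 lost regions, equal list lengths left 172 lost, peaks of −log10 q 5 or more left 212 gained, and 1 mouse left out gave 518 to 800 gained and 379 to 1586 lost. The cause of these shifts was not tested, except that a rule of 3 of 3 libraries is easier to meet than 4 of 4 and that fewer regions were tested where their number is given.

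All 69 named regions kept their direction with background scaling, loess, no block and each mouse left out, but not all calls: 22 of 43 risen and 15 of 26 fallen ones passed with no replicate block, and 16 of 69 with reads summed over summits. With background scaling 18 of 43 risen ones and 26 of 26 fallen ones still passed: beside the 12 largest rises these were Msmo1, Nr4a2, Lcn2, Tnip1, Il10 and Cyba. With fold enrichment 14 and 10 passed, and 8 turned in direction: Lcn2 (-0.084), Itgb2 (-0.038), Adgre5 (0.15), Retnlg (0.10), Slc7a11 (0.29), Dusp1 (0.26), Anxa1 (0.074) and Fos (0.17). Differences in peak number, gene-end share and signal over background kept their sign under each alternative run. Regions called in all 8 libraries need enough reads in the shallowest library, baseline 4, so weak regions were covered by calls alone.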
